A study of Mus musculus with 3 samples.

Results

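The genes described here are 48 mouse genes of the cell cycle and of DNA replication, taken from a list of gene symbols. All 48 symbols were found among the 55536 annotated genes of the expression tables, and the list uses no measured value. They were read in 5 groups by role: 8 cyclins and kinases of G1 and of the G1/S transition, 6 inhibitors of cyclin-dependent kinases, 8 pocket proteins, E2F factors and Myc, 14 replication genes, and 12 genes of G2 and mitosis. The data are 3 libraries of polyadenylated RNA, 1 group in all, made from macrophages that were derived from C57BL/6J bone marrow. The labels call them biological replicates 1, 2 and 3. The cells were exposed to lipid A at 100 ng/ml over 12 h, kept without it for 12 h after washing, and exposed to the same dose again for 480 min. Each library started from 1 µg of RNA. Lipid A is the part of bacterial lipopolysaccharide that Toll-like receptor 4 recognises. The sample descriptions name lipid A, whereas the treatment fields name lipoprotein A. No genotype change, age or sex is given, and the 3 libraries share 1 donor record, so nothing states that they came from separate animals. The spread between libraries may therefore be technical. No untreated library was analysed here, so the levels below have no control, and no value shows what lipid A did to a gene.

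The cell cycle is driven by cyclins, which bind and activate cyclin-dependent kinases. In G1, D-type cyclins with Cdk4 or Cdk6 phosphorylate the pocket proteins, which otherwise hold E2F transcription factors in check. E2F factors then drive genes for cyclin E, for the replication machinery and for nucleotide synthesis, and a later set of genes is switched on for mitosis. Macrophages grown from bone marrow divide in response to the growth factor Csf1, and bacterial products are known to slow their division.

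The libraries held 24596382, 54016971 and 43127749 expected counts in replicates 1, 2 and 3, of which the 48 genes took 0.125%, 0.147% and 0.150%. All 8 macrophage markers examined (Adgre1, Cd68, Csf1r, Lyz2, Itgam, Mertk, Fcgr1 and Cd14) stood at 10 TPM or more in every library, TPM being a level scaled by transcript length and to the same total in each library. Their summed level was 15400, 13500 and 16700 TPM. No marker of haematopoietic progenitors (0 of 7), neutrophils and their precursors (0 of 7), erythroid cells (0 of 6), lymphocytes (0 of 6) or fibroblasts (0 of 5) reached 1 TPM in all libraries. The summed progenitor markers were between 0.97 and 1.78 TPM, and those of neutrophils were 0.79, 5.27 and 0.68 TPM, of which Ngp alone gave 4.97 TPM in replicate 2. Ctsg, Ly6g, Hbb-bt, Hba-a1, Alas2, Cd79a and Nkg7 were listed at 0 in all 3 libraries. Replicate 2 also stood apart in the share of counts on mitochondrial mRNAs, which was 6.86% there against 1.06% and 1.13%. Its part in the results below was not tested. In bulk RNA, a smaller share of dividing cells and less RNA of a gene in each cell cannot be told apart.

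The role groups stood at different levels. Genes that act in G1 were near the median of expressed genes, replication genes were lower, and genes of G2 and mitosis were lowest. Of the 48 genes, 35 were at 1 TPM or more in every library, against 42.9% of all 22028 protein-coding genes. By role these were 7 of 8 G1 cyclins and kinases, 4 of 6 inhibitors, 7 of 8 pocket proteins, E2F factors and Myc, 13 of 14 replication genes and 4 of 12 genes of G2 and mitosis. A further 6 genes were under 1 TPM in every library, and 7 were above it in some libraries only. At 10 TPM or more in every library stood 13 of the 48 genes.

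The level of a group was taken as its median log2(TPM + 1) minus that of expressed genes. These were the 10350 protein-coding genes that reached 1 TPM in any library, and their median was 15.1 TPM. On this log2 scale the G1 cyclins and kinases were at 0.12 ± 0.26 (SD over libraries, n = 3), with 0.44, -0.08 and 0.14 in replicates 1, 2 and 3. Pocket proteins, E2F factors and Myc were at -0.32 ± 0.38, with -0.66, 0.05 and -0.54. Neither group was farther from the median of expressed genes than its spread between libraries. Without replicate 1 the G1 level was -0.06, below 0, and without replicate 2 the level of pocket proteins, E2F factors and Myc was -0.70. The inhibitors were at -0.89 ± 0.53, with -0.90, -1.74 and -0.75. Replication genes were at -1.39 ± 0.46, with -1.79, -0.89 and -1.15. The G2 and mitosis genes were at -2.75 ± 0.43, with -3.06, -2.35 and -3.14. In each library the order from G1 to replication to mitosis was the same, and the mitosis values did not overlap those of any other group. The values of the inhibitors overlapped those of the replication genes. As median levels per length, the groups stood at 16.9 TPM for G1, 12.4 TPM for pocket proteins, E2F factors and Myc, 8.75 TPM for inhibitors, 5.15 TPM for replication and 1.40 TPM for G2 and mitosis. Over all 48 genes the median was 6.44 TPM, and 12 genes lay above 15.1 TPM.

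**Figure D1:**
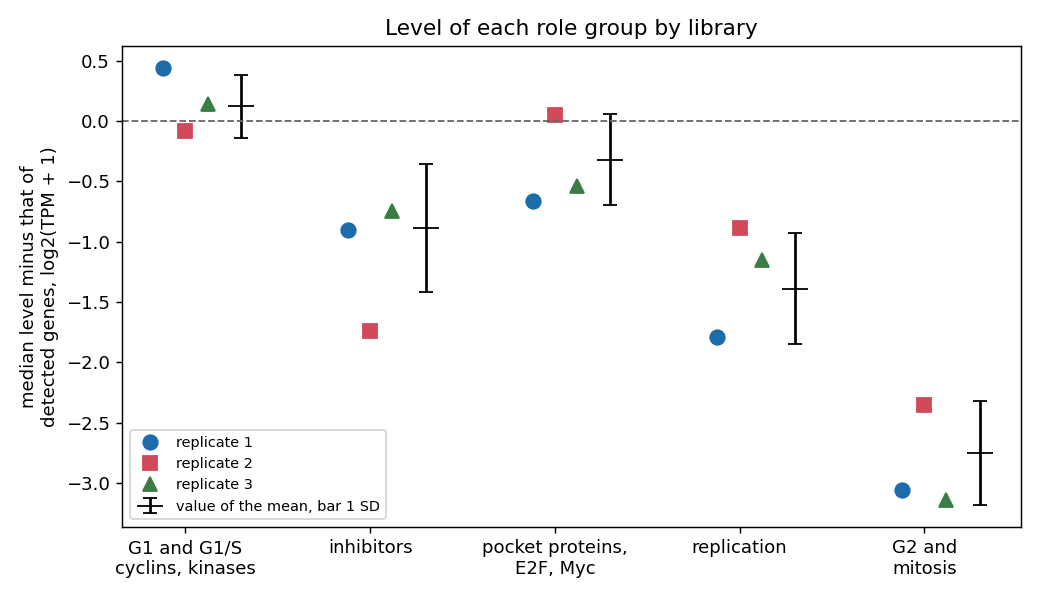
Median level of each role group minus that of expressed protein-coding genes, in log2(TPM + 1), by library, with the value of the mean and a bar of 1 SD. The G1 values lie around 0, the replication values between -1.79 and -0.89, and the mitosis values between -3.14 and -2.35, below those of every other group.

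Among the G1 cyclins and kinases, all members except Ccne2 were detected in every library. Ccnd1, Ccnd2 and Ccnd3 encode the D-type cyclins that activate Cdk4 and Cdk6. Ccnd1 (chr7:144929931-144939925, mm10) was at 27.41, 51.14 and 44.13 TPM in replicates 1, 2 and 3. Ccnd2 was at 26.66, 10.31 and 25.40 TPM, and Ccnd3 at 43.82, 12.95 and 38.01 TPM. The D-type cyclins had no fixed order: Ccnd1 was highest of these genes in replicates 2 and 3 and Ccnd3 in replicate 1. In replicate 2 Ccnd1 was at its highest while Ccnd2 and Ccnd3 were at their lowest. Ccnd3 exceeded Ccnd2 in every library, with a log2 ratio of Ccnd2 over Ccnd3 of -0.54 ± 0.20 (SD, n = 3). With 3 libraries the smallest p of an exact sign-flip test is 0.25, so ratios between genes are described by their sign and spread.

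Cdk4, the kinase partner of D-type cyclins, was at 37.22, 38.84 and 48.57 TPM. Cdk6, its relative with the same partners, was at 16.42, 10.69 and 11.97 TPM. All Cdk4 values lay above all Cdk6 values, and the log2 ratio was 1.68 ± 0.44. For the main coding transcripts of the genes the ratio was 1.40 ± 0.87, positive in every library but within 3 SD of 0. Cdk2, the partner of E-type cyclins, was at 10.61, 6.76 and 12.55 TPM, and Cdk4 exceeded it by a log2 ratio of 2.08 ± 0.37. Exons of Cdk4 overlap 641 bases of Tspan31 on the opposite strand, a gene at a mean of 92.0 TPM, and strandedness is not given in the sources used here, so reads of the shared bases cannot be told apart. The same holds for Ccnd1, whose exons share 1100 bases with LTO1, a gene at 44.2 TPM.

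Ccne1 and Ccne2 encode the E-type cyclins of the G1/S transition. Ccne1 was at 9.51, 17.34 and 6.18 TPM, and Ccne2 was at 1.40, 5.57 and 0.53 TPM. Both were highest in replicate 2, and Ccne1 exceeded Ccne2 in each library by a log2 ratio of 2.54 ± 0.86. CPM here are counts scaled to library size and by TMM factors, edgeR's correction for differences in composition between libraries. Scaled counts of Ccne1, which do not depend on which transcript the reads were assigned to, were 11.4, 11.0 and 6.89 CPM. Replicate 2 was no longer the highest. The transcripts behind this difference between scales are described below.

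Of the inhibitors, Cdkn1a stood far above the others. It encodes an inhibitor of several cyclin-dependent kinases that is a known target of the tumour suppressor Trp53. Cdkn1a (ENSMUSG00000023067.14, chr17:29090976-29100727, + strand) was at 230.98, 258.72 and 284.09 TPM, from 6379, 18186 and 14226 expected counts. This was the highest level among the 48 genes, and the libraries differed in TPM by 1.23-fold at most. The spread was wider in CPM, where Cdkn1a was at 258.5, 381.5 and 294.2. It was also wider in the second quantification described below, where Cdkn1a was at 156, 257 and 248 TPM. Cdkn1b, a relative of Cdkn1a, was at 13.72, 12.04 and 13.68 TPM, and the log2 ratio of Cdkn1a over Cdkn1b was 4.28 ± 0.19. Cdkn1a also exceeded Ccnd1 in every library, by a log2 ratio of 2.70 ± 0.37.

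The remaining inhibitors belong to the INK4 family, which blocks Cdk4 and Cdk6. Cdkn2d was the highest of them in every library, at 24.19, 3.34 and 16.95 TPM. Cdkn2c was at 4.17, 2.81 and 6.05 TPM, and the log2 ratio of Cdkn2d over Cdkn2c was 1.41 ± 1.13, positive in all libraries and within 3 SD of 0. Both were lowest in replicate 2. Cdkn2a and Cdkn2b, neighbours on chromosome 4, were at the limit of detection. Cdkn2a had 4, 0 and 2 expected counts, or 0.40, 0 and 0.11 TPM. A count of 0 in replicate 2 allows up to 0.110 TPM (3 counts, counting error only). Cdkn2b had 15, 1 and 5 expected counts, or 0.78, 0.02 and 0.14 TPM. In replicate 2, every inhibitor except Cdkn1a (5 of 6) was at its lowest TPM, and none was at its highest. Of expressed protein-coding genes, 27.2% were highest in replicate 2 in TPM. The share lowest there is not given, so whether this is particular to the inhibitors cannot be told. On the scale of TMM-scaled CPM, 2 of the 4 inhibitors tested were highest in replicate 2, so this pattern did not hold across scales.

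The pocket proteins bind E2F factors, and Rbl1 was the highest of them in replicates 1 and 3. Rbl1 (chr2:157145893-157204534, - strand) was at 35.12, 40.59 and 34.18 TPM. Rb1, the retinoblastoma protein, was at 12.92, 20.31 and 14.33 TPM, and the log2 ratio of Rb1 over Rbl1 was -1.23 ± 0.22. Rbl2 was at 8.76, 40.88 and 10.85 TPM. Replicate 2 was far above the other libraries for Rbl2 and level with Rbl1. In CPM, Rbl2 was at 26.2, 53.1 and 31.9, so that the gap between replicate 2 and the others was smaller on the count scale.

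Among the E2F factors, E2f4, which mostly works as a repressor together with pocket proteins, was highest. E2f4 was at 28.06, 35.17 and 31.14 TPM. The activators E2f1 and E2f3 were at 7.71, 8.22 and 10.74 TPM and at 8.05, 7.39 and 7.37 TPM. E2f4 exceeded E2f1 by a log2 ratio of 1.82 ± 0.28 and E2f3 by 2.03 ± 0.23, with no overlap. E2f1 and E2f3 did not separate, at a log2 ratio of E2f3 over E2f1 of -0.21 ± 0.30. E2f2, a further activator, was under 1 TPM in every library, at 0.58, 0.43 and 0.60 TPM. Myc, a growth-promoting transcription factor, was at 9.82, 7.99 and 4.12 TPM. E2f3 differed by 1.09-fold at most between libraries in TPM, and its CPM were 24.2, 28.2 and 20.7.

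**Figure D2:**
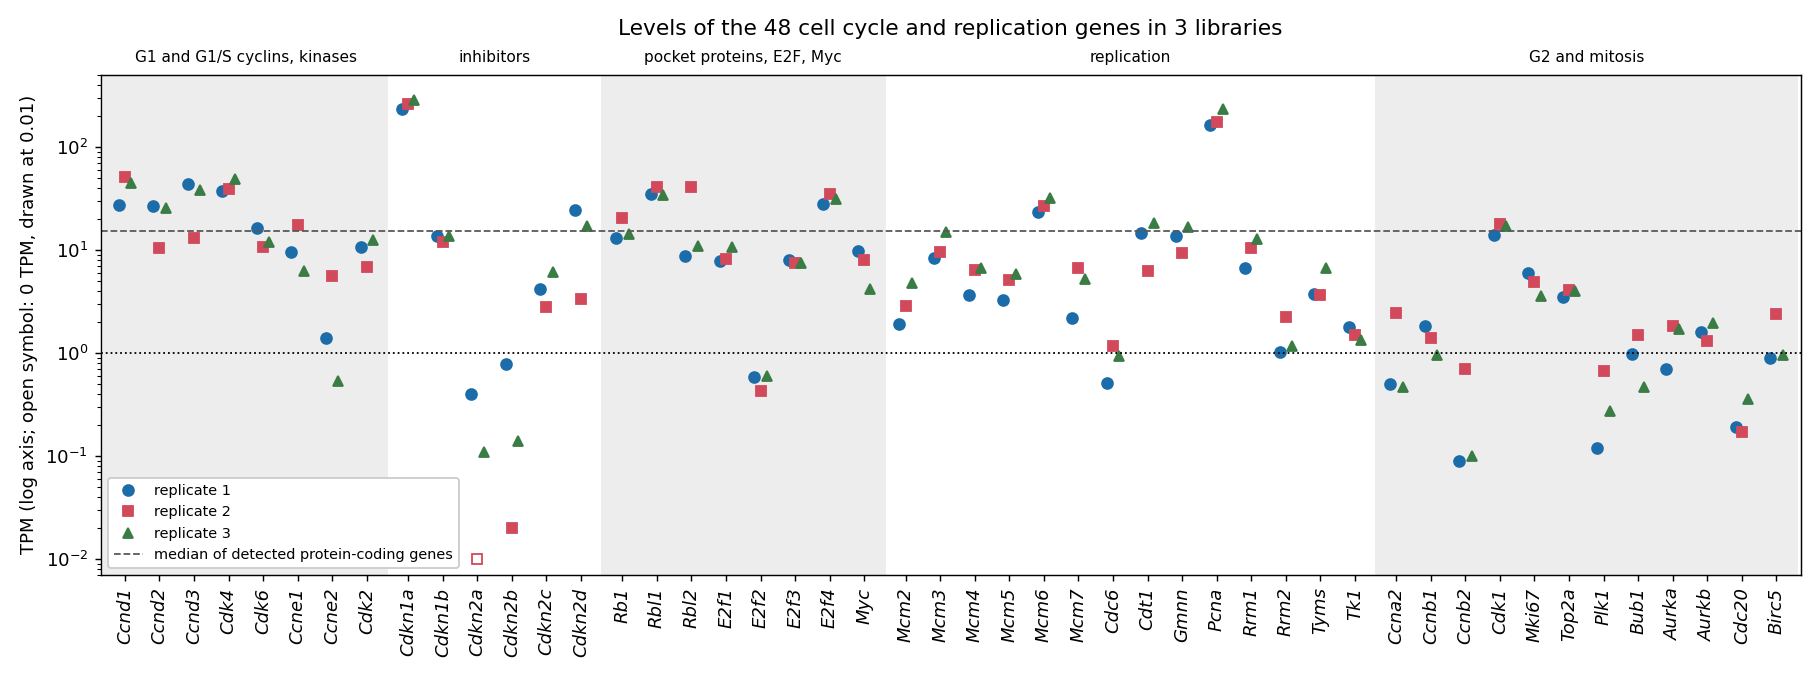
Level of each of the 48 genes in TPM on a log axis, by role group, with 1 symbol per library. The dashed line marks 15.1 TPM, the median of expressed protein-coding genes, and the dotted line 1 TPM, and an open symbol stands for 0. Cdkn1a and Pcna lie above all others, and most genes of G2 and mitosis lie near or below the dotted line.

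Replication genes were detected but low, with Pcna and Mcm6 as the exceptions. Pcna encodes the sliding clamp that holds DNA polymerases on the template and also serves DNA repair. Pcna (ENSMUSG00000027342.14, chr2:132249162-132253314, - strand) was at 161.49, 175.28 and 232.53 TPM. Mcm2 to Mcm7 encode the 6 subunits of the replicative helicase, which are assembled into 1 ring in equal numbers. Mcm6 (chr1:128331590-128359664, - strand) was at 23.14, 26.82 and 31.80 TPM. Mcm3 was at 8.33, 9.58 and 14.85 TPM, Mcm4 at 3.62, 6.37 and 6.69 TPM, and Mcm5 at 3.28, 5.14 and 5.82 TPM. Mcm2 was at 1.90, 2.84 and 4.81 TPM and Mcm7 at 2.17, 6.61 and 5.26 TPM. The lowest Mcm6 value exceeded the highest value of any other subunit. All 6 subunits were lowest in replicate 1, and 5 of them were highest in replicate 3 in TPM. The shares of all expressed genes that did so are not given, so whether either count is particular to the helicase cannot be told. The count in replicate 3 turned with the scale. In CPM, which uses the TMM factors and no length, 5 of the 6 (all but Mcm2) were highest in replicate 2. Mcm4, for example, was at 8.31, 18.7 and 14.2 CPM. The TMM factors were 1.01, 0.886 and 1.12 in replicates 1, 2 and 3, and a factor under 1 raises CPM. How much of the turn came from these factors and how much from length was not tested. Pcna exceeded Mcm5 in every library, by a log2 ratio of 5.31 ± 0.26.

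The factors that load the helicase differed from each other. Cdc6, a loading factor, was at 0.51, 1.17 and 0.94 TPM, from 23, 142 and 82 expected counts. Cdt1, which acts with Cdc6, was at 14.66, 6.25 and 18.16 TPM. Gmnn, the inhibitor of Cdt1, was at 13.49, 9.33 and 16.78 TPM, and the log2 ratio of Gmnn over Cdt1 was 0.11 ± 0.40. The sign of this ratio differed between libraries, and both genes were lowest in replicate 2.

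Genes of nucleotide synthesis were low. Rrm1 and Rrm2 encode the large and small subunits of ribonucleotide reductase. Rrm1 was at 6.68, 10.43 and 12.77 TPM and Rrm2 at 1.01, 2.22 and 1.17 TPM, a log2 ratio of 2.71 ± 0.59. Tyms, thymidylate synthase, was at 3.74, 3.62 and 6.71 TPM, and Tk1, the thymidine kinase of dividing cells, at 1.77, 1.49 and 1.32 TPM. Tyms exceeded Tk1 in every library, by a log2 ratio of 1.51 ± 0.66. For the main coding transcripts alone this ratio was -0.37 ± 0.93, since most of the Tyms level was on other transcripts.

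Promoter windows of 3 replication genes at very different levels are shown because they hold different matches to the E2F motif. The windows are from RefSeq on GRCm38.p6, read on the strand of the gene from 250 bases before to 50 bases after its RefSeq start. Matches on either strand are in capitals. The letters searched were TTTGGCGC, TTTCCCGC, TTTCGCGC and TTTGCCGC for E2F, TTTGAA and TTCGAA for the cell cycle homology region (CHR, a motif of mitotic promoters), and CCAAT. Matches of different motifs may overlap, and a window counts once for each motif. The Mcm6 window (chr1:128359656-128359955, - strand, 27.3 TPM) holds 3 E2F matches, of which 2 overlap, and 2 CCAAT matches. The Cdc6 window (chr11:98907901-98908200, + strand, 0.873 TPM) holds 1 E2F match. The Pcna window (chr2:132253131-132253430, - strand, 190.0 TPM) holds 1 CCAAT match.
Mcm6: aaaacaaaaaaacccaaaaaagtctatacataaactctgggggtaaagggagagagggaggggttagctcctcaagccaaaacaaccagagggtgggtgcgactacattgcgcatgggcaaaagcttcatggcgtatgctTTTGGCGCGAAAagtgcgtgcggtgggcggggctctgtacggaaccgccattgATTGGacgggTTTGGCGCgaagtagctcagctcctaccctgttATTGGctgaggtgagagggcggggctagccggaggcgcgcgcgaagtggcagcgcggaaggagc
Cdc6: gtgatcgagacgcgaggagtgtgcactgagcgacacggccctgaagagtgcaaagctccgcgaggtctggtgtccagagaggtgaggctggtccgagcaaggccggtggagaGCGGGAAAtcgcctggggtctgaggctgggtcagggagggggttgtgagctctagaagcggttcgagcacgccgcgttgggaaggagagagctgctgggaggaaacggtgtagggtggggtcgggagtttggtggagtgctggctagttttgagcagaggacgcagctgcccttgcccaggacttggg
Pcna: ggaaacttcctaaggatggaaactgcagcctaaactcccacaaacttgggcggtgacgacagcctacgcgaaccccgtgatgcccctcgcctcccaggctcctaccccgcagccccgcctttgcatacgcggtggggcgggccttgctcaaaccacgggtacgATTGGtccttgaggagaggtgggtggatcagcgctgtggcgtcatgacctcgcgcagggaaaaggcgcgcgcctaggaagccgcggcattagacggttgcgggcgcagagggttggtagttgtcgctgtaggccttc

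RefSeq windows were matched for 38 of the 48 genes, giving 45 windows. An E2F match was in 12 of these 45 (26.7%), against 2.26% of all 32851 promoter windows of the table, and in 6 of the 13 windows of replication genes. The 12 genes with a match ranged from 0.17 TPM (Cdkn2a) to 36.6 TPM (Rbl1), with a median of 8.79 TPM. Some genes have more than 1 window, and a match need not lie at the start of the main coding transcript. The windows with the Cdkn2a and E2f3 matches belong to starts 12427 and 1672 bases from that of the main coding transcript. The 26 matched genes without one ranged from 0.24 TPM (Cdc20) to 258 TPM (Cdkn1a), with a median of 4.52 TPM. Genes with and without a match thus spanned overlapping levels. A match is a description of the letters and no sign of binding in these cells.

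Genes of G2 and mitosis were the lowest group, and Cdk1 was its exception at the level of the whole gene. Cdk1, the kinase that drives entry into mitosis, was at 13.94, 17.79 and 16.93 TPM. Mki67, the proliferation marker Ki-67, was at 6.02, 4.86 and 3.57 TPM, from 1004, 1951 and 1098 expected counts. Top2a, the topoisomerase that untangles replicated chromosomes, was at 3.46, 4.04 and 4.02 TPM. Aurkb, a kinase of the chromosomal passenger complex, was at 1.61, 1.29 and 1.94 TPM. These 4 genes passed 1 TPM in every library.

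The cyclins that partner Cdk1 were far lower than Cdk1 at gene level. Ccnb1 was at 1.83, 1.38 and 0.95 TPM, and Ccnb2 at 0.09, 0.70 and 0.10 TPM. Ccna2, the A-type cyclin of S phase and G2, was at 0.50, 2.41 and 0.47 TPM. Ccnb2 and Ccna2 were highest in replicate 2 and Ccnb1 in replicate 1. Exons of Ccna2 overlap 510 bases of Exosc9 on the opposite strand, a gene at 35.0 TPM.

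Kinases and regulators of mitosis were near 1 TPM or below. Aurka, the kinase of the spindle poles, was at 0.70, 1.82 and 1.70 TPM, and Birc5, the survivin subunit of the passenger complex, at 0.90, 2.40 and 0.95 TPM. Bub1, a kinase of the spindle checkpoint, was at 0.98, 1.49 and 0.47 TPM. Plk1, the polo-like kinase, was at 0.12, 0.67 and 0.27 TPM, from 4, 55 and 16 expected counts. Cdc20, which activates the anaphase-promoting complex, was at 0.19, 0.17 and 0.36 TPM, from 5, 11 and 17 expected counts. Plk1, Cdc20 and Ccnb2 were under 1 TPM in every library, with few reads behind them. Cdc20 overlaps 53 bases of Elovl1, a gene at 127 TPM on the opposite strand.

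The promoter windows of Cdk1 and Cdc20 are shown for the contrast between the highest and the lowest gene of the group, which share CHR and CCAAT matches. The Cdk1 window (chr10:69352863-69353162, - strand, 16.2 TPM) holds 1 E2F, 2 CHR and 3 CCAAT matches. The Cdc20 window (chr4:118437294-118437593, - strand, 0.24 TPM) holds 1 CHR and 2 CCAAT matches and no E2F match. Capitals mark the matches as above.
Cdk1: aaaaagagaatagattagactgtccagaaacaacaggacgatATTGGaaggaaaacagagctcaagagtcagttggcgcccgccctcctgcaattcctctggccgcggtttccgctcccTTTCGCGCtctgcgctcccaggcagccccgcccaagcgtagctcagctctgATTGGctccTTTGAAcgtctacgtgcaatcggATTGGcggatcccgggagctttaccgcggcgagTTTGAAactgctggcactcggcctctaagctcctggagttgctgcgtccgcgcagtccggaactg
Cdc20: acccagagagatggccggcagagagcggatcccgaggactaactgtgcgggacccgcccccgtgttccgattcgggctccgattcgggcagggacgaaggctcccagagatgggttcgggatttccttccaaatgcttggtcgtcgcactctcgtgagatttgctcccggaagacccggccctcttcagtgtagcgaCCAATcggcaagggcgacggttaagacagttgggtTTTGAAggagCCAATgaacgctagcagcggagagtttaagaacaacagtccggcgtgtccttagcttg

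A CHR match was in 8 of the 10 windows of G2 and mitosis genes and in 14 of all 45 windows (31.1%), against 19.2% of all windows of the table. A CCAAT match was in 9 of the 10, and in 27 of the 45 (60.0%), against 37.4% of all windows. The 14 genes with a CHR match had a median level of 2.29 TPM, from Cdc20 at 0.24 TPM to Rbl2 at 20.2 TPM.

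Several of these levels rested largely on transcripts other than the main coding one, most often in replicate 2. Some of those were short or non-coding. Others were coding and of similar length: in replicate 2 Cdk2 was divided between transcripts of 2406 and 2240 bases, at 37.64% and 43.54%. The share of a gene's abundance on its main coding transcript, the protein-coding transcript with the most expected counts, was at least 80% in every library for 18 of the 48 genes. It was under 50% in 6, 11 and 5 genes in replicates 1, 2 and 3. For Cdk4, Ccne1, Cdk2, Rbl2, Mcm7 and Aurkb it was under 50% in replicate 2 and at least 50% in the other libraries. The same counts over all expressed genes are not given, so whether these shares are particular to the members cannot be told.

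Rbl2 shows the pattern most plainly. Its main coding transcript Rbl2-201 was at 7.62, 8.0 and 10.13 TPM, with no library apart. A transcript of 821 bases with a retained intron, Rbl2-207, was at 0.32, 24.41 and 0 TPM and held 59.72% of the gene's abundance in replicate 2. With the main coding transcript in place of the whole gene, Rbl2 lay below Rbl1 in every library, at a log2 ratio of -1.89 ± 0.26, whereas the ratio at gene level was -1.21 ± 1.07. Exons of Rbl2 overlap 693 bases of Aktip, a gene at 13.9 TPM on the opposite strand.

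Ccne1 and Ccne2 behaved alike in this respect. Ccne1-201, of 2000 bases, was at 9.51, 4.19 and 6.18 TPM, and Ccne1-204, a coding transcript of 608 bases, was at 0, 13.15 and 0 TPM. Ccne1-204 thus held 75.82% of the gene in replicate 2. In the second quantification it was at 1.48, 14.4 and 0.85 TPM, so reads were assigned to it in every library by that route, and replicate 2 was again the highest. For Ccne2 the transcript Ccne2-205, of 432 bases and not coding, held 81.61% in replicate 2, from 41 expected counts. Its main coding transcript was at 0.56, 0.60 and 0.53 TPM. On main coding transcripts, Ccne1 exceeded Ccne2 by a log2 ratio of 3.27 ± 0.63.

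For Cdk1 a short transcript held a large share in all libraries and the larger share in replicates 2 and 3. Cdk1-204, of 475 bases with a retained intron, held 41.62%, 79.43% and 54.08% of the gene, from 22, 151 and 57 expected counts. The main coding transcript Cdk1-202 was at 7.34, 2.23 and 6.95 TPM, so that the coding level was lowest in replicate 2, in which the gene level was highest. Tyms was similar: Tyms-201 held 20.34%, 6.58% and 12.13%, and most of the remainder was on transcripts annotated for nonsense-mediated decay or with a retained intron. Myc, the other gene under 50% in every library, was divided among coding transcripts. Myc-201 and Myc-205, both of 2338 bases, were given identical values of 2.31, 2.39 and 1.06 TPM, so the share of Myc-201 is part of a level divided between entries of equal length.

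**Figure D3:**
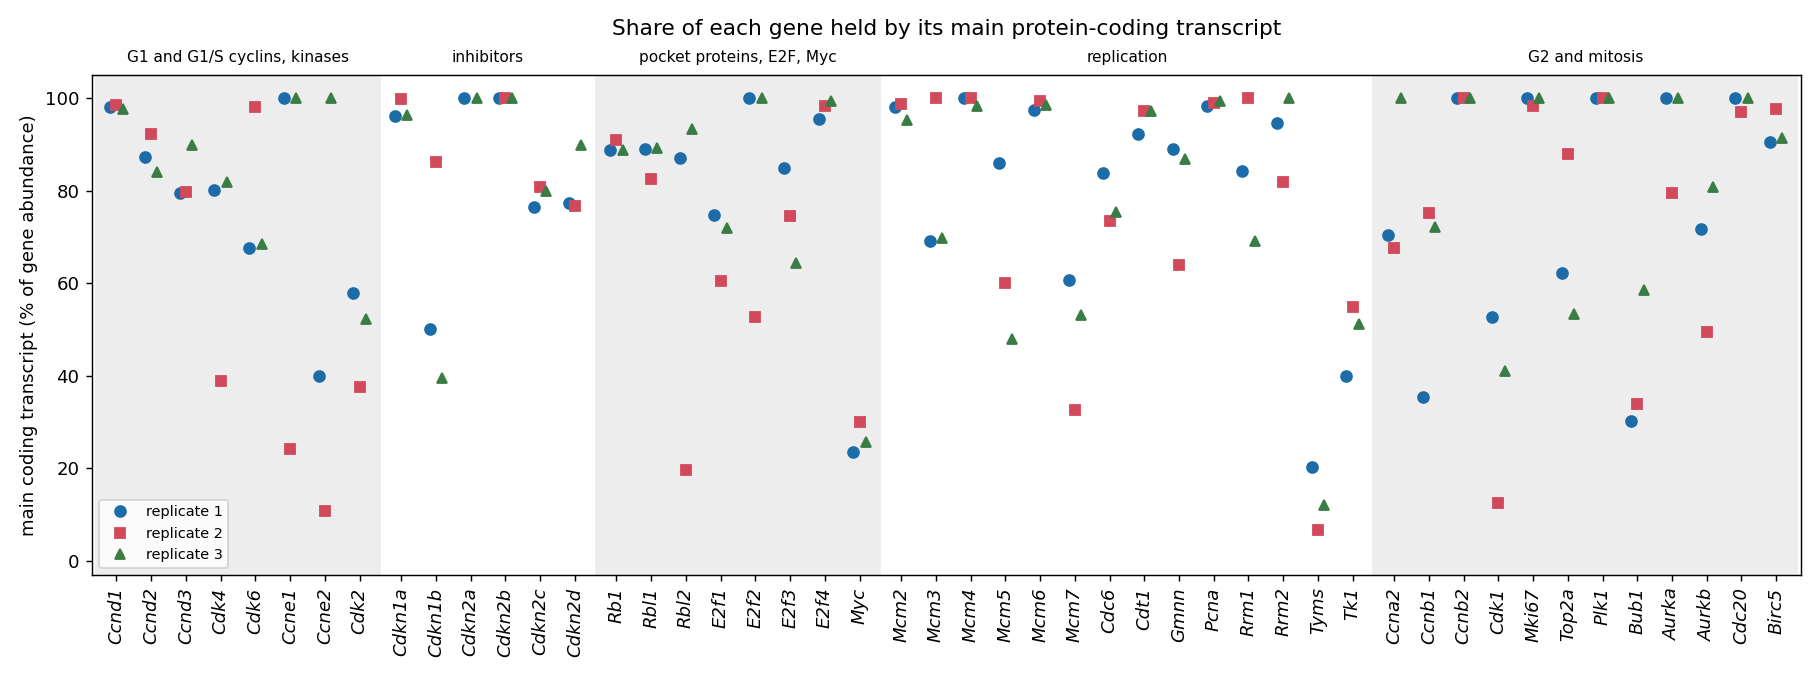
Share of each gene's abundance on its main protein-coding transcript, in percent, with 1 symbol per library; Cdkn2a has no value in replicate 2, in which it had 0 counts. For Rbl2, Ccne1, Cdk4, Mcm7, Cdk2 and Aurkb the share of replicate 2 lies under 50% and the others at or above it.

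Of 24 ratios between related genes, 10 were separated, meaning that no library differed in sign and that the mean lay more than 3 SD from 0 on the scale of log2(TPM + 0.1). These were the ratios already given of Cdk4 to Cdk6 and to Cdk2, of Cdkn1a to Cdkn1b and to Ccnd1, of Rb1 to Rbl1, of E2f4 to E2f1 and to E2f3, of Rrm1 to Rrm2 and of Pcna to Mcm5, together with Cdkn2d over Cdkn2a at 5.68 ± 0.62. The last rests on a gene with 6 counts in all and on the value of 0.1 added to each TPM. Without replicate 2, 16 of the 24 were separated. The ratios with the largest SD at gene level were Ccnd1 over Ccnd3, at 0.50 ± 1.35, Ccnb1 over Ccnb2, at 2.21 ± 1.24, and Ccnd1 over Ccnd2, at 1.04 ± 1.15. Rb1 over Rbl2 was -0.02 ± 0.86. Mki67 over Top2a was 0.29 ± 0.48, Aurka over Aurkb was -0.27 ± 0.78 and Cdk2 over Cdk1 was -0.73 ± 0.56, none of them separated.

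**Figure D4:**
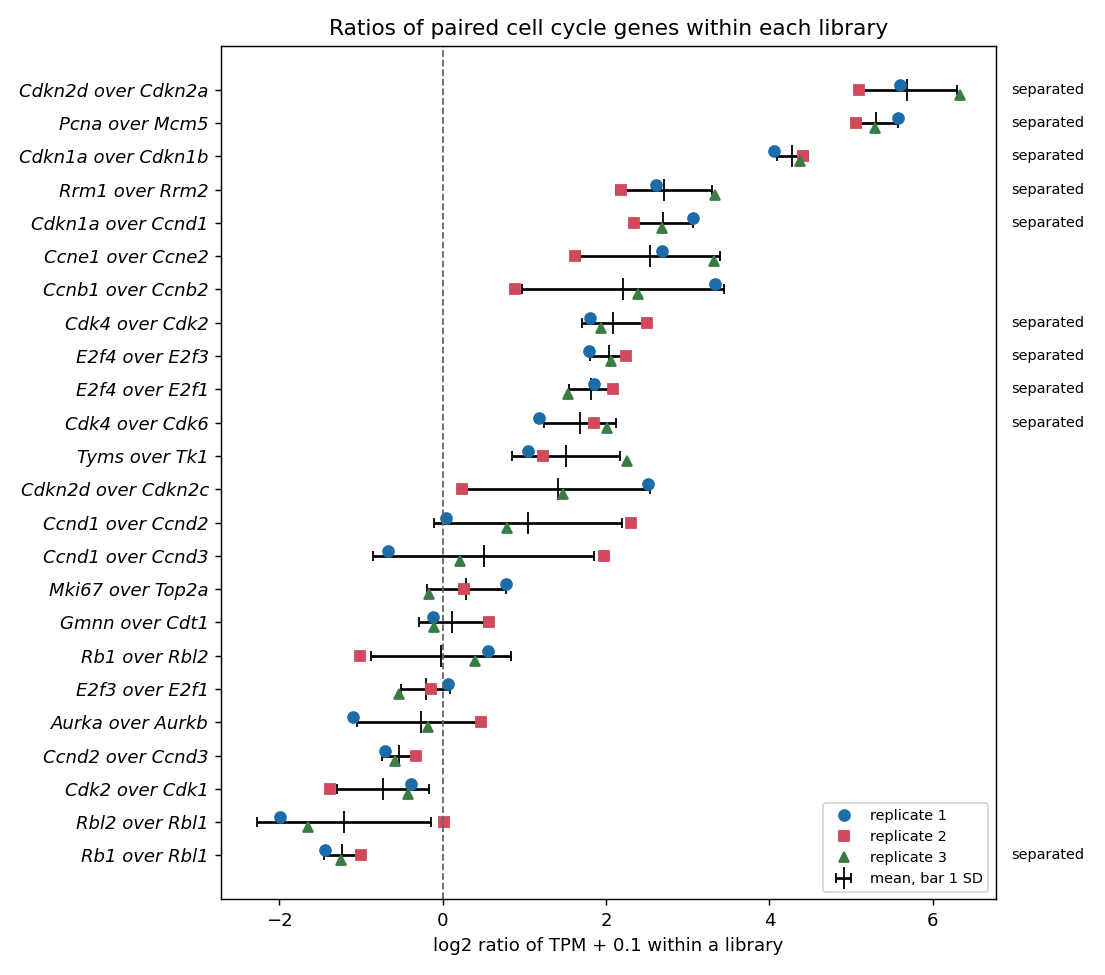
Log2 ratio of TPM + 0.1 for 24 pairs of related genes within each library, with the mean and a bar of 1 SD; pairs of unchanging sign with a mean more than 3 SD from 0 are marked as separated. Cdkn1a over Cdkn1b lies between 4.06 and 4.41 in all libraries, and Ccnd1 over Ccnd3 spreads from -0.67 to 1.97 across 0.

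The spread between libraries was close, at the median, to that of other expressed genes. Among the 35 genes detected in every library, the highest value was 1.78 times the lowest at the median, from 1.09 (E2f3) to 7.24 (Cdkn2d). It was under 2-fold for 24 of the 35 (68.6%), against 64.2% of the 9439 protein-coding genes detected in every library, whose median was 1.71. Variance beyond the trend over all genes was tested on counts with edgeR's quasi-likelihood fit, with Benjamini-Hochberg adjustment over 11932 genes. None of the 43 members tested was called, and 0.0% of all genes were, and DESeq2's dispersion outliers held 0 members and 17 genes. At an unadjusted p under 0.05 stood 2 members. Ccna2 was at 0.729, 4.38 and 0.827 CPM and Cdkn2d at 18.03, 3.40 and 11.7 CPM, Ccna2 being highest and Cdkn2d lowest in replicate 2. In edgeR's fit across all genes the p of Ccna2 was 0.0357 and that of Cdkn2d 0.0368, both with an adjusted p of 0.933. With 3 libraries the test had little power for moderate changes. In simulated counts it recovered 8.5% of genes changed 4-fold in 1 library and 84.0% of those changed 16-fold. Whether these shares hold for the measured counts was not tested, and they may be lower there.

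Which library was highest differed by role in TPM, and in part this depended on the scale. In TPM, replicate 2 was highest for 18 of the 48 genes, against 27.2% of expressed protein-coding genes. It was highest for 8 of 12 genes of G2 and mitosis, 4 of 8 pocket proteins, E2F factors and Myc, 3 of 8 G1 cyclins and kinases, 3 of 14 replication genes and 0 of 6 inhibitors. Replicate 3 was highest for 10 of the 14 replication genes in TPM and for 4 of 14 in TMM-scaled CPM. The share of all expressed genes highest in replicate 3 is not given. The count of mitosis genes highest in replicate 2 was 7 of 9 in TMM-scaled CPM. It was 7 of 12 on main coding transcripts, against 21.2% of expressed genes, and 9 of 12 in the second quantification, against 37.0%. That for replication genes moved with the scale, to 10 of 14 in CPM. That for pocket proteins, E2F factors and Myc moved to 7 of 8 and that for inhibitors to 2 of 4. For G1 cyclins and kinases it stayed at 3 of 8. In CPM 29 of 43 members were highest in replicate 2, against 42.3% of expressed genes. Mitochondrial mRNAs take more of replicate 2, and with TPM rescaled to nuclear protein-coding genes 25 of 48 members were highest there, against 39.1%. The difference between roles was not tested.

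Each library was quantified by 2 routes, and no member was called as different between them, although the second gave lower values in replicate 1. Of the 40 members that averaged 1 TPM or more by either route, limma called none as different by at least 1 on the log2(TPM + 1) scale at an adjusted p under 0.05, and 0 had an unadjusted p under 0.05. Among all 10203 genes tested, 1.26% were called higher and 0.392% lower in the second quantification. The members' differences, the second minus the first, ran from -0.341 (Mcm3) to 0.30 (Tk1) with a median of -0.114, and 37 of 40 were below 0. The median over all genes was -0.143, made up of -0.42, 0.05 and -0.09 in replicates 1, 2 and 3, so the members' shift was close to that of all genes. After centring on each library's median, 10 of the 40 had an unadjusted p under 0.05 and none was called. The second quantification gave Cdkn1a at 221 ± 55.8 TPM (SD, n = 3) against 258 ± 26.6 TPM in the first, and Pcna at 161 ± 49.7 TPM against 190.0 ± 37.7 TPM. It also gave Rbl2 at 6.29, 41.3 and 9.36 TPM, so the high value of replicate 2 appeared by both routes.

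Other genes of the same pathways, taken from lists, were read beside the members. Of 32 genes of origins and the replisome, 25 were at 1 TPM or more in every library. The highest were the clamp loader subunit Rfc2 at 46.6 ± 20.8 TPM (SD, n = 3) and the origin recognition subunits Orc4 at 36.2 ± 9.84 TPM and Orc3 at 26.6 ± 3.85 TPM. The lowest were Orc1 at 0.520 ± 0.190 TPM and the polymerase subunit Pole at 0.843 ± 0.326 TPM. These gene levels rest largely on other transcripts: the main coding transcript was at 7.06 ± 2.62 TPM for Rfc2, 6.90 ± 1.19 TPM for Orc4 and 10.4 ± 1.86 TPM for Orc3. On that scale Gins4 (21.6 TPM), Orc5 (16.9 TPM) and Rfc3 (16.5 TPM), named after their values were seen, were higher.

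In nucleotide supply, 7 of 10 genes passed, and enzymes that serve cells outside S phase led the list. Samhd1, which degrades deoxynucleotides and restricts viruses, was at 1130 ± 170 TPM, with 1208.87, 929.87 and 1238.47 TPM in replicates 1, 2 and 3, of which its main coding transcript held 355 ± 108 TPM. Dck, deoxycytidine kinase, was at 104.0 ± 2.97 TPM and Dguok, the mitochondrial deoxyguanosine kinase, at 28.1 ± 10.6 TPM. Shmt1, a folate enzyme, was the lowest, at 0.847 ± 0.297 TPM. The second quantification put Shmt1 higher, by 0.928 on the log2(TPM + 1) scale (limma adjusted p = 1.63e-05).

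Of 26 genes of the mitotic machinery, 8 passed 1 TPM in every library and 10 were under it in all 3. Pttg1, securin, was at 188.75, 125.55 and 195.32 TPM, far above the others, followed by the spindle factor Tpx2 at 33.6 ± 11.1 TPM and Incenp at 26.6 ± 6.75 TPM, or 12.6 ± 9.00 TPM on its main coding transcript. Cenpf at 0.0267 ± 0.0289 TPM and Nek2 at 0.190 ± 0.135 TPM were lowest. In TPM, 18 of the 26 were at their highest in replicate 2, against 27.2% of expressed protein-coding genes. Among the members of G2 and mitosis this count was 8 of 12. Pttg1 had 70.51%, 25.97% and 53.64% of its abundance on its main coding transcript. The counts and levels of this list are by the first quantification. Hmmr and Kif23, named after their values were seen, were called higher in the second, by 2.05 and 1.15 on the log2(TPM + 1) scale.

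Partners of E2F and subunits of the MuvB complex, which silences cell cycle genes in resting cells, passed in 9 of 12 cases. Rbbp4 was at 35.1 ± 12.0 TPM, Lin37 at 23.9 ± 12.4 TPM and E2f5 at 20.6 ± 5.72 TPM, while E2f7 was at 0.273 ± 0.182 TPM and Mybl2, the MuvB partner of dividing cells, at 0.360 ± 0.262 TPM. Of 21 checkpoint and antiproliferative genes, 18 passed. Gadd45b was at 288 ± 132 TPM, and Mdm2 and Ccng1, known targets of Trp53 like Cdkn1a, were at 86.6 ± 28.7 TPM and 78.6 ± 15.7 TPM. Cdkn3 at 0.397 ± 0.271 TPM and the checkpoint kinase Chek1 at 0.423 ± 0.139 TPM were the lowest. The main coding transcripts of Lin37 and Mdm2 were at 13.8 ± 5.40 TPM and 48 ± 25.3 TPM. These lists were chosen with earlier results of these libraries known, and their counts describe levels without a test.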

How the data were processed

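Notes deposited beside the tables say that each library was quantified by 2 routes, both on mm10 with GENCODE M21: from alignments to the transcriptome (the first) and from reads against a transcript index (the second). Tools, versions and strandedness were not given in the sources used here. Per the file headers, the deposited tables of the first hold expected counts, in which a read shared by several transcripts is divided among them, and TPM, which is scaled by effective length. Per the file headers, they also give each transcript's percent of its gene and, for each gene, a posterior SD of the count, which was at most 16.0 counts or 5.13% for a member. The deposited tables of the second hold estimated counts and TPM for transcripts, summed to genes here. Entries that name no annotated gene (0.0875%, 0.0464% and 0.0636% of counts) were left out of tests.

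Expected counts were rounded and tested with edgeR 4.0.16 after its filter on low counts, with DESeq2 1.42.0 as an alternative, and quantifications were compared with limma 3.58.1 on log2(TPM + 1), in R 4.3.3. The scripts were tested on simulated data. Exons of 16 members overlap those of other genes, 15 of them on the opposite strand. Every member is named. From each further list the 3 highest and 2 lowest genes by mean TPM were named, except for a gene that is not reported here, and Hbb-bt and other markers at 0 were named after their values were seen. The members, lists, pairs and motifs were chosen with earlier results of these data known. Promoter windows came from RefSeq on GRCm38.p6. Alternatives were pseudocounts, filters, backgrounds, size factors, the second quantification, leaving out each library, and, chosen after seeing the data, main coding transcripts, TMM-scaled CPM, TPM rescaled to nuclear genes and centred differences.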

Additional observations from a re-analysis of the deposited data

How the results depend on the processing

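No paired analysis was possible because the 3 libraries form 1 group. The direction of a role group's level depends on the genes it is set against. Set against every annotated protein-coding gene, a background that by construction adds genes with few or no reads, the levels became 3.75 for G1 cyclins and kinases, 2.75 for inhibitors, 3.32 for pocket proteins, E2F factors and Myc, 2.24 for replication and 0.89 for G2 and mitosis. The order of G1, replication and mitosis was the same. With a pseudocount of 0.1 the mitosis level was -3.34. Leaving out 1 library at a time gave -0.06 to 0.25 for G1, -0.70 to -0.23 for pocket proteins, E2F factors and Myc, -1.06 to -0.85 for inhibitors, -1.48 to -1.17 for replication, -3.05 to -2.68 for mitosis, 35 to 37 members detected, and 10 to 16 separated pairs, the last without replicate 2. The cause was not tested. In TMM-scaled CPM, a setting chosen after seeing the data, 29 members were highest in replicate 2. No member was called for excess variance in any setting, while calls over all genes were 0 as reported, 64 without a filter, 17 as DESeq2 dispersion outliers and 7 to 20 with 1 library left out; members at an unadjusted p under 0.05 numbered 1 to 5. Genes called between quantifications were 129 higher and 40 lower, 206 and 52 with a pseudocount of 0.1, 69 and 16 after centring (chosen after seeing the data), and 0 and 0 without a filter, with no member in any. Depth limits Cdkn2a, Cdkn2b, Ccnb2, Plk1 and Cdc20, which had under 60 counts in every library.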

Other observations

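Cyclins and kinases that act in transcription rather than in the cell cycle were detected throughout: 12 of 12 were at 1 TPM or more in every library and 10 at 10 TPM or more, with a median of 15.6 TPM, beside 16.9 TPM for the G1 cyclins and kinases. Cdk9, the kinase that releases paused RNA polymerase, was at 70.31, 52.69 and 75.56 TPM in replicates 1, 2 and 3, and Ccnl1 at 73.51, 34.51 and 39.57 TPM. Ccnk, the cyclin of Cdk12, was at 35.54, 128.55 and 39.94 TPM, with replicate 2 far above the others. Its main coding transcript held 97.37%, 98.90% and 97.59% of the gene, so the high value was not on a short transcript. In CPM it was at 60.5, 284.8 and 64.4, with an unadjusted p of 0.0131 and an adjusted p of 0.933 for excess variance in edgeR. Ccnh at 12.8 ± 4.05 TPM and Mnat1 at 9.48 ± 1.12 TPM (SD, n = 3) were the lowest.

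In the Myc network, which holds the partners and rivals of Myc, 6 of 9 genes passed 1 TPM in every library. Max, the obligate partner of Myc, was at 173.15, 615.12 and 218.89 TPM, and in CPM at 170.9, 540.0 and 189.3, highest in replicate 2 on both scales (edgeR unadjusted p = 0.0533, adjusted p = 0.933). Its main coding transcript held 54.61%, 33.81% and 55.18%. Mlx was at 45.7 ± 6.15 TPM and Mxd1, which competes with Myc for Max, at 34.7 ± 14.8 TPM. Mxd3 was at 0.0867 ± 0.0252 TPM, and Mycn was listed at 0 in all libraries.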
